A study of Mus musculus with 4 samples.

Results

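The genes described here are 5 transporters that carry glucose or lactate across cell membranes: Slc2a1, Slc2a2, Slc2a3 and Slc2a4, which encode the glucose transporters GLUT1 to GLUT4, and Slc16a1, which encodes the monocarboxylate transporter MCT1. Every probe set with 1 of these as its single gene symbol was taken, which gave 7 probe sets out of 10833 with a single symbol (8251 genes). Slc2a3 and Slc2a4 have 2 probe sets each. The genes were chosen by their signals in the comparison of the groups T+T and T+O, in which the Slc2a3 probe sets differ, so the values of that comparison are given for these genes as a description.

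In the seminiferous tubule, Sertoli cells take up glucose, turn much of it into lactate and release the lactate for the germ cells, which can use it as fuel. GLUT1 is the glucose transporter usually named for Sertoli cells. GLUT3 has a high affinity for glucose, is best known from neurons and is also found in male germ cells. GLUT2 serves liver and pancreatic islets, and GLUT4 moves to the surface of muscle and fat cells when insulin is present. MCT1 carries lactate and pyruvate together with a proton.

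Testis RNA of hypogonadal (hpg) mice was measured on 4 one-colour arrays. These mice lack gonadotropin-releasing hormone, so their own testosterone is low, and every array is described as coming from animals pretreated with testosterone propionate, an injectable ester, that was then withdrawn. The pretreatment lasted 2 weeks on 3 of the arrays, and for T+T replicate 1 no duration is stated. T+O is a single array after withdrawal. T+T has 3 arrays, and a second dosing with testosterone propionate, lasting 4 hours, is stated only for T+T replicate 1. For T+T replicates 2 and 3 the label stops at the withdrawal, like that of T+O, so that the titles alone place them in T+T. The labels do not say whether an array stands for 1 animal or a pool, so a p-value here covers the spread between these samples, which may be technical.

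The deposited signals had medians between 25.4 and 48.3 and were scaled to a common trimmed mean. Array pairs correlated with Pearson's r between 0.943 and 0.968 over the 7453 probe sets kept by a filter on dim ones. Markers of the testis were present: 8 of 8 named spermatid genes and 8 of 9 Sertoli cell genes passed the filter. Of the tissues in which GLUT2 and GLUT4 are abundant, 0 of 4 liver genes, 3 of 5 muscle genes and 2 of 3 fat genes passed. The ratio of 3′ to 5′ signal of the control transcript Gapdh was 1.201 on T+O and 0.809 to 0.886 on the T+T arrays. That of pyruvate carboxylase was 3.76 on T+O and 1.76 to 2.00 in T+T, and that of the transferrin receptor 9.50 on T+O and 1.52 to 3.39 in T+T, with deposited 5′ signals of only 3 to 15.6. That of Actb on T+O, 1.53, lay within the T+T values, so that 3 of the 4 ratios set T+O apart from every T+T array.

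Slc2a3 was the single gene of the 5 whose signal passed the filter, and its 2 probe sets gave different accounts of the same arrays. On 92292_at the scaled signal was 142 on T+O and 585, 705 and 646 on T+T replicates 1, 2 and 3. All 3 T+T arrays lay above the T+O array, and the groups did not overlap. The T+T mean was 645 ± 60.1 (SD, n = 3), 4.54 times the T+O signal, a log2 difference of 2.10 with an SD of 0.13 over the T+T arrays. Log2 differences here are of scaled signal plus an offset of 10, which understates the change of dim probe sets. Before scaling, the deposited signals were 155.5 on T+O and 508.8, 531.6 and 828.6 on the T+T arrays, so that T+O was the lowest there too.

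On 93804_at the scaled signal of Slc2a3 was 1493 on T+O and 1150, 1334 and 1064 on T+T replicates 1, 2 and 3. Here all 3 T+T arrays lay below T+O, at 1183 ± 138 (SD, n = 3), with a log2 difference of -0.34 and an SD of 0.16 over the T+T arrays. The direction of Slc2a3 thus depends on which probe set is read. Both lay above the filter level of 22.7 on every array. In whole-testis RNA, a change in the share of the cells that carry a transcript cannot be told apart from a change per cell.

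Of the 2 Slc2a3 probe sets, 92292_at differed from T+O by 1.5-fold or more after the offset was added, in 1 direction, on each T+T array, and 93804_at did not. By the same count 1.82% of all kept probe sets were higher and 2.21% were lower. By the mean log2 difference 92292_at stood at place 3 from the highest of 7453 and 93804_at at place 6344. These places belong to the comparison in which the gene was chosen and carry no further weight.

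**Figure D1:**
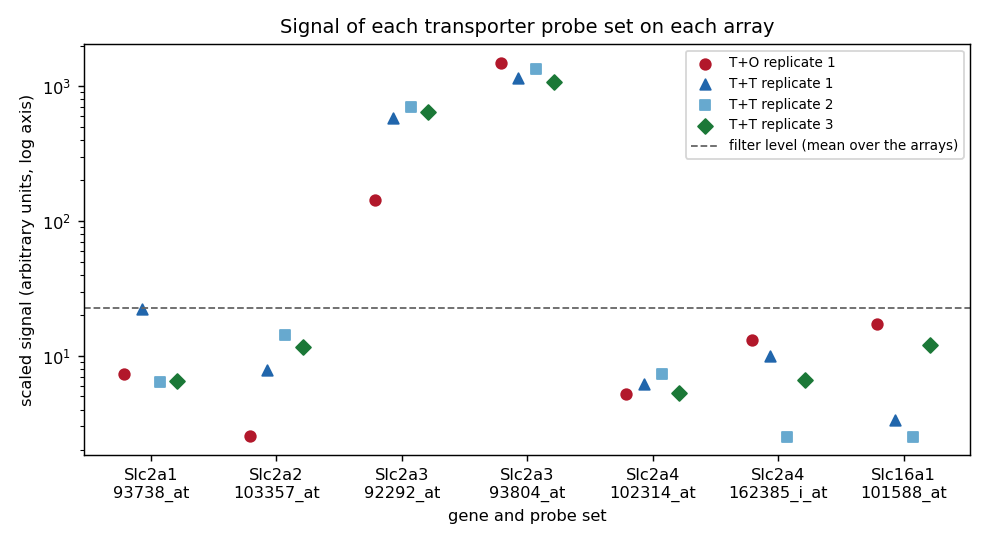
Scaled signal (log axis) of each of the 7 transporter probe sets on each of the 4 arrays, 1 point per array, with the filter level of 22.7, which applies to the mean over the arrays, as a dashed line. Both Slc2a3 probe sets lie far above the line, and on 92292_at the T+O point (142) lies apart from the T+T points (585 to 705); the other 5 probe sets lie below the line.

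The low 92292_at signal belonged to the T+O array alone. T+T replicates 2 and 3, whose labels, like that of T+O, stop at the withdrawal, had 705 and 646, against 142 on T+O. T+T replicate 1, the array described as treated again, had 585, the lowest of the T+T arrays. The 3 T+T arrays differ in their descriptions, so they can be compared without T+O. This contrast is not the one that chose the gene, but the same T+T signals entered that choice. T+T replicate 1 minus the mean of replicates 2 and 3 gave -0.20 on the log2 scale for 92292_at, with a 95% interval of -0.66 to 0.26 (limma, adjusted p = 0.999). For 93804_at it was -0.051, with an interval of -0.54 to 0.44 (limma, adjusted p = 0.999). Neither probe set passed in this comparison, in which 3 of 7453 probe sets did (0.0403%). That fit has 1 residual degree of freedom, and on simulated data its p-values were too small. When the arm is taken from the descriptions, so that T+T replicate 1 stands against the 3 other arrays, the difference of 92292_at becomes 0.52 and that of 93804_at -0.16.

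Between the 2 Slc2a3 probe sets the log2 differences from T+O lay 2.44 apart. The arrays hold 897 genes with several kept probe sets, which make 1177 pairs of probe sets of the same gene. The median distance within a pair was 0.28, and 90% of pairs were less than 0.82 apart. The gene was chosen because its probe sets differ, so its place among these pairs is a description. Slc2a3 was the widest of the 1177 pairs, followed by the flagellar dynein gene Dnah8 at 2.08 and the long non-coding RNA Tug1 at 1.74. The median distance was smaller, 0.18, over the 34 pairs in which both probe sets were at least as bright as 92292_at. Opposite signs were common, in 507 of the 1177 pairs (43.1%). Where the probe sets lie along the transcript is not given here, and the annotation ties them to different sequence records. RefSeq has 1 other gene, the pseudogene Gm4482, that overlaps the span of Slc2a3, and whether either probe set reads it was not tested. The 3′ to 5′ ratios of Gapdh, pyruvate carboxylase and the transferrin receptor set T+O apart as 92292_at does, and their part in its low T+O signal was not tested.

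**Figure D2:**
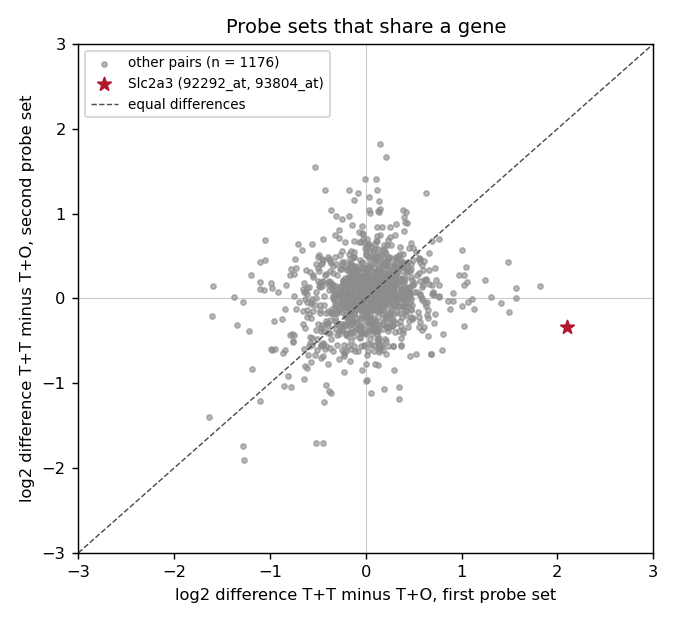
Log2 difference T+T minus T+O of the first (x axis) and second (y axis) probe set, in order of the file, for each of 1177 pairs of kept probe sets that share a gene symbol; the dashed line marks equal differences. The Slc2a3 pair (star, 2.10 and -0.34) lies farthest from the dashed line.

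The genes whose profile over the 4 arrays lay nearest to 92292_at, by Euclidean distance of centred log2 values, were Slc27a1 (0.25), Llgl2 (0.34) and Icmt (0.38). Slc27a1, which encodes the fatty acid transport protein FATP1, had 14.4 on T+O and 66.02, 97.0 and 79.0 on the T+T arrays. All 3 of these genes were below the filter level of 22.7 on T+O and above it on every T+T array. Nearest to 93804_at were the transcription factor genes Erf (0.030) and Tfdp1 (0.030) and the semaphorin gene Sema4a (0.035). Erf had 135 on T+O and 100.3, 118 and 94.9 on the T+T arrays.

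The summed signals of the marker lists give the cell makeup beside these values. The 8 spermatid genes summed to 29060 on T+O and to 28828 to 37288 on the T+T arrays. The 6 spermatocyte genes summed to 7831 against 7499 to 9199, so that both T+O sums lay within the T+T range. These sums are carried by a few bright genes, and many single genes lay outside the T+T range. Of the spermatocyte genes, Sycp1, at 389.9 on T+O and 13.5 to 38.5 in T+T, lay far above it. Ccna1, Hspa2 and Pgk2 lay below it, and Ldhc and Sycp3 within it. Of the spermatid genes, Prm1, Prm2, Tnp1 and Tnp2 lay below it, Acrv1 above it, and Gapdhs, Tssk1 and Odf1 within it. The 9 Sertoli genes summed to 2274 on T+O, just below the T+T range of 2329 to 2719. Clu, by far the brightest of them, had 1589 on T+O and 1566 to 1874 in T+T. It lay within the T+T range, as did Wt1 and Inhbb, and the others lay below theirs. The 5 muscle genes summed to 86.1 on T+O and 137 to 190 in T+T, and the 6 macrophage genes to 212 against 272 to 366. The 5 endothelial genes summed to 209.5 against 225 to 289.5. Of these, Eng and Cd34 lay below the T+T range on T+O, Cdh5 above it, and Pecam1 and Tek within it. The 3 red cell genes summed to 544 against 563 to 620.5, and the 6 Leydig genes to 349 against 303 to 393. The 5 spermatogonial genes, at 594 against 523 to 571, and the 3 fat genes, at 350.0 against 242 to 328, lay above the T+T range, as did the 4 liver genes, all below the filter, at 51.9 against 20.8 to 51.0. Of the spermatogonial genes, Dazl (166 on T+O, 63.5 to 103 in T+T) and Stra8 lay above the T+T range. Kit and Uchl1 lay below it and Zbtb16 within it, and a second Dazl probe set had a log2 difference of 0.0073. Of the fat genes only Lipe, at 260 on T+O against 141 to 229, lay above the T+T range, and Adipoq and Fabp4 lay within it. No marker was at 0 on any array. The part of cell makeup in the Slc2a3 signals was not tested.

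The other 4 transporters were dim on every array. None of their 20 signals (5 probe sets on 4 arrays) reached the filter level of 22.7, and between 7.09% and 41.0% of all probe sets on the same array were dimmer still. No detection calls were used, so it cannot be said whether these transcripts were present. For Slc2a1 (GLUT1), 93738_at had 7.32 on T+O and 22.4, 6.37 and 6.54 on T+T replicates 1, 2 and 3. T+T replicate 1 stood above the other 3 arrays, and the T+O array lay within the T+T range. Without T+T replicate 1 its log2 difference turned from 0.25 to -0.074.

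Slc16a1 (MCT1) had 17.2 on T+O and 3.34, 2.52 and 12.1 on the T+T arrays. All 3 lay below T+O, by -0.82 on the log2 scale with an SD of 0.45, but T+T replicate 3 lay closer to T+O than to the other T+T arrays. Slc2a2 (GLUT2) had the lowest signal on T+O, 2.56, with 7.82, 14.2 and 11.7 on the T+T arrays. Its log2 difference of 0.75 (SD 0.22) is that of a dim probe set: 7.33% of all probe sets were dimmer on T+O and 21.9% to 32.6% were dimmer on the T+T arrays. It was 1.75 with an offset of 1 and 0.30 with an offset of 35, so the size of such a difference moves with the offset.

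The 2 probe sets of Slc2a4 (GLUT4) also lay to different sides of T+O. On 102314_at the signal was 5.21 on T+O and 6.21, 7.30 and 5.30 on the T+T arrays, a log2 difference of 0.095. On 162385_i_at it was 13.1 on T+O and 10.01, 2.52 and 6.62 in T+T, a difference of -0.52 with an SD of 0.34. In all, T+O lay outside the range of the T+T arrays for 6 of the 7 transporter probe sets, as it did for 52.9% of all 12422 probe sets. With the offset of 10 added, none of the 5 dim ones was 1.5-fold to one side on all T+T arrays, against 1.73% higher and 2.48% lower among the 12422. Without an offset, all 3 T+T signals of Slc2a2 lay more than 1.5-fold above its dim T+O signal of 2.56. The share of all probe sets that did so without an offset was not counted, so this carries no weight. With the arm taken from the descriptions, Slc2a2 turned to -0.073 and 162385_i_at of Slc2a4 to 0.25, while Slc2a1 became 0.95.

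Other genes of glucose and lactate handling were read from 5 lists of 90 genes, of which 56 were on the arrays by name and 42 of those passed the filter. None passed the test of T+T minus T+O (limma, lowest adjusted p = 0.48), in which 0.0268% of all kept probe sets did; 3 of the 42 had an unadjusted p under 0.05, as 7.80% of all kept probe sets did (581 of 7453). Their median log2 difference was 0.045, against 0.026 over all kept probe sets. Within T+T, replicate 1 minus replicates 2 and 3, none passed either (limma, lowest adjusted p = 0.64), and 2 had an unadjusted p under 0.05, as 5.93% of all kept probe sets did (442 of 7453).

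Among the other hexose transporters 3 of 11 were measured, 1 above and 2 below T+O, with a median of -0.032. Slc2a5, the fructose transporter GLUT5, had 462 on T+O and 501, 398 and 460.5 on the T+T arrays, so that T+O lay within the T+T range. Slc2a8, which encodes the intracellular transporter GLUT8, had 250.9 on T+O and 313, 282 and 252 in T+T, a difference of 0.16 that turned to -0.045 on the deposited values. Slc37a4, the glucose-6-phosphate carrier of the endoplasmic reticulum, had 46.8 on T+O and 27.9, 46.8 and 15.6 in T+T. Neither Slc2a5 nor Slc2a8 was 1.5-fold from T+O on any T+T array.

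Of 17 lactate and pyruvate carriers and their chaperones 4 were measured, 2 above and 2 below T+O, with a median of -0.055. Slc16a7, which encodes MCT2, a carrier with a high affinity for lactate and pyruvate, had 667 on T+O and 449, 574 and 437 on the T+T arrays. All 3 lay below T+O, by -0.46 ± 0.21 on the log2 scale (SE; limma, adjusted p = 0.67). Slc16a8, which encodes MCT3, lay the other way, with 8.69 on T+O and 21.5, 60.5 and 37.6 in T+T, a difference of 1.34 ± 0.48 (SE; limma, adjusted p = 0.53). Its T+O signal was under the filter level and the T+T arrays spread widely. Bsg, or basigin, the chaperone that takes MCT1 to the membrane, had 1704 on T+O and 1948, 1924 and 1765 in T+T, and Emb, or embigin, a related chaperone, had 58.0 against 38.0, 45.4 and 60.6. Slc5a1 and the pyruvate carrier gene Mpc1 were on the arrays but their mean signals fell below the filter. Mpc1 had 39.1 on T+O, above the filter level, and 9.32, 13.5 and 12.7 in T+T (-1.17). It lay 1.5-fold or more below T+O on each T+T array, as 2.48% of all 12422 probe sets did. The filter takes the mean of 3 T+T arrays and 1 T+O array, so genes dim in T+T fail it more readily than genes dim on T+O.

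Of 16 genes of glucose phosphorylation and lactate exchange 10 were measured, 6 above and 4 below T+O (median 0.13). The highest were Hk1, a hexokinase that traps glucose in the cell, at 0.30, and Ldha, a lactate dehydrogenase subunit, at 0.25, with 2982 on T+O and 3568 ± 289 (SD, n = 3) in T+T. The lowest were Pdha1, a subunit of pyruvate dehydrogenase, at -0.61, and Hk2, another hexokinase, at -0.22. Without T+T replicate 3 Pdha1 was at -0.199, and without T+T replicate 1 Hk2 was at -0.048. Of 22 genes of insulin signalling to glucose uptake 14 were measured, 6 above and 8 below (median -0.0052). The highest were the kinase genes Prkcz at 0.40, whose second probe set was at -0.061, and Pdpk1 at 0.26. Pdpk1 had 215 on T+O and 207, 392 and 214 in T+T, so that replicate 2 alone lay above T+O, and a second probe set was at 0.47. The lowest were Vamp2, a vesicle fusion protein, with 120 on T+O and 80.3, 52.9 and 61.9 in T+T (-0.81), and Igf1r at -0.20.

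Of 24 regulators of glucose transporter genes 11 were measured, 8 above and 3 below (median 0.29). Hif1a, the oxygen-regulated transcription factor that raises GLUT1 and GLUT3 in hypoxia, had 304 on T+O and 121, 182 and 197 on the T+T arrays. It lay 1.5-fold or more below T+O on each of them, at -0.86 ± 0.28 (SE; limma, adjusted p = 0.48). A second Hif1a probe set went the same way at -1.04, but on T+T replicate 3 it lay less than 1.5-fold below T+O (-0.43). The names of both mark cross-hybridisation within a gene family. Sp1 had 40.7 on T+O and 23.2, 13.0 and 27.6 in T+T, at -0.73. Creb1 was highest at 0.55, with a second probe set at -0.12, and the lipid sensor Ppara stood at 0.49. Of the 42 genes, 1 (Slc16a8) was 1.5-fold or more above T+O on each T+T array and 1 (Hif1a) as far below it, together 4.76%, near the 4.04% of all kept probe sets.

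**Figure D3:**
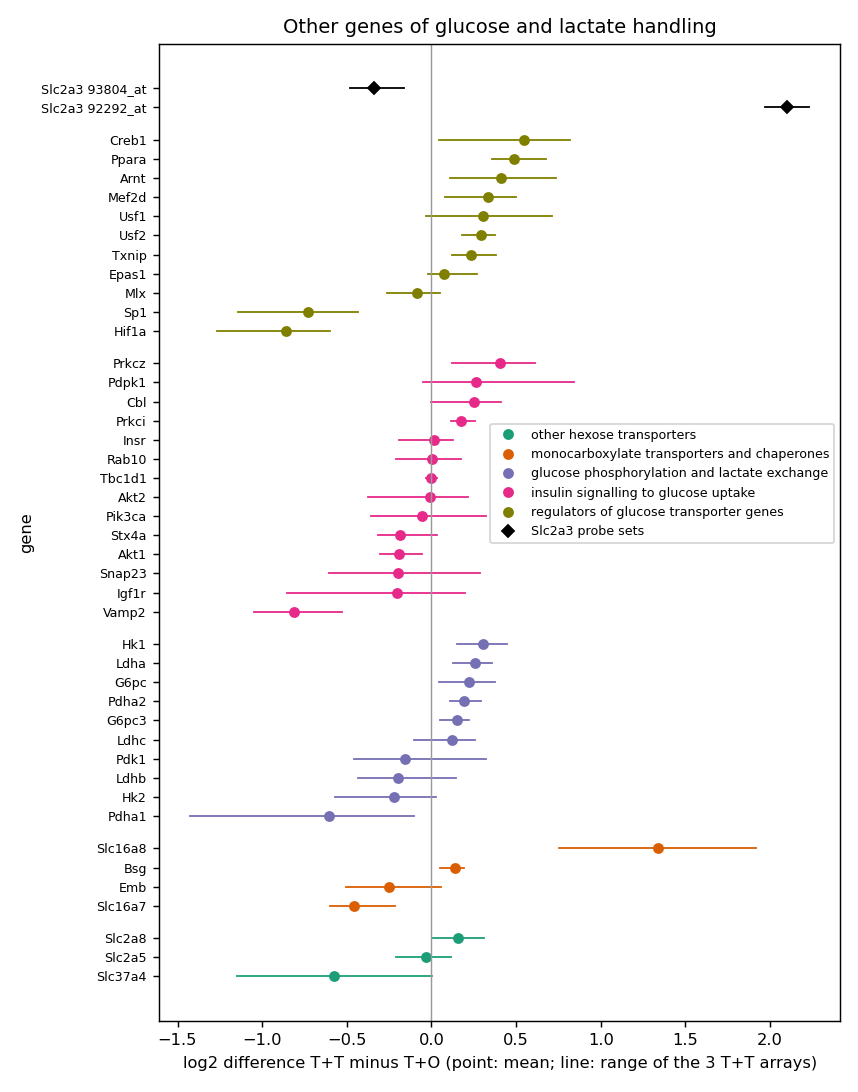
Log2 difference T+T minus T+O of the 42 measured genes of the 5 lists and of the 2 Slc2a3 probe sets; points are means and lines span the 3 T+T arrays. Most genes lie near 0, Slc16a8 (1.34) is highest among them and Hif1a (-0.86) lowest, and 92292_at of Slc2a3 (2.10) lies above all of them.

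The signs of both Slc2a3 probe sets were the same under each setting tried, and every setting used the same single T+O array. After median and quantile scaling 92292_at stood at 2.07 and 2.10, and 93804_at at -0.37 and -0.37. Leaving out 1 T+T array at a time gave 2.04 to 2.17 and -0.43 to -0.27. Neither sign could change there, because on each probe set every T+T array lay to the same side of T+O.

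**Figure D4:**
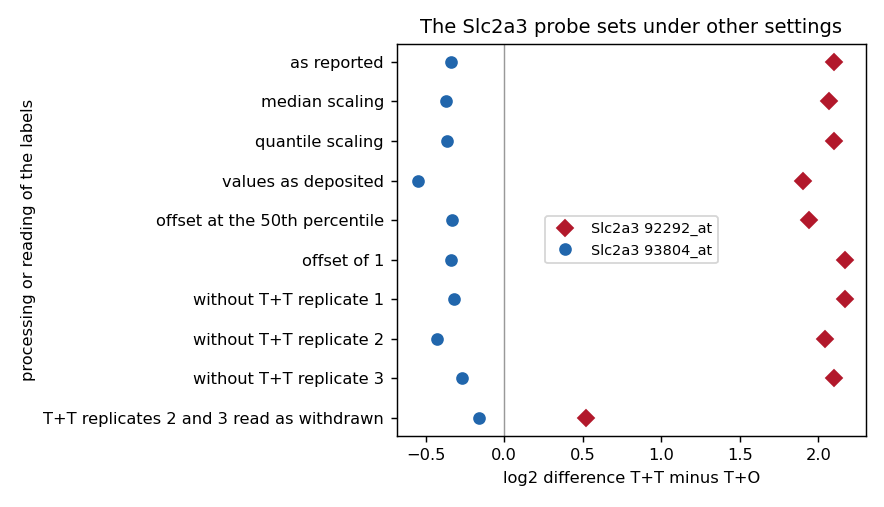
Log2 difference T+T minus T+O (x axis) of the 2 Slc2a3 probe sets as reported and under 9 other settings (y axis). 92292_at (diamonds) lies between 1.90 and 2.17 under all scalings, offsets and left-out arrays and at 0.52 when the arm is taken from the descriptions (the lowest line); 93804_at (circles) lies below 0 throughout.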

How the data were processed

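The file holds linear signal intensities of 12488 probe sets as deposited. How the authors computed them is not stated. The 66 control probe sets were left out. Arrays were scaled to equal trimmed means (2% cut from either end). An offset of 10, the 25th percentile of scaled values, was added before log2. The filter kept the 7453 probe sets whose mean signal exceeded the 40th percentile of such means, 22.7. Symbols came from the platform annotation, updated by gene ID through RefSeq (GRCm38.p6), which held 10817 of 10833 probe sets with a single symbol; 396 carried several symbols and 1193 none, and none of these was named. A list gene is its brightest kept probe set.

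Groups follow the sample titles; the T+T array without a number was numbered 3 in accession order. Contrasts were fitted with limma 3.58.1 in R 4.3.3 (lmFit, eBayes with an intensity trend, two-sided, Benjamini-Hochberg over 7453 probe sets, threshold 0.05). The T+T minus T+O fit has 2 residual degrees of freedom, and T+O, being alone, is taken to be as variable as T+T. The fit within T+T gives T+O its own coefficient. Both were tested on simulated data. The members, lists and settings were chosen with earlier results of these data known. Named genes are all members, all measured genes of the 2 transporter lists, and the 2 highest and 2 lowest of each other list. The 3 nearest genes of each kept member probe set are also named. Dnah8, Tug1, Mpc1, Slc5a1, Sycp1 and the other single cell type markers were named after their values were seen. The comparison with equally bright pairs was also made then. The number of arrays limits the precision.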

Additional observations from a re-analysis of the deposited data

How the results depend on the processing

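No paired analysis was possible because T+O is a single array whose number pairs it with nothing. The differences of 92292_at and 93804_at of Slc2a3 became 1.90 and -0.55 on the values as deposited, where the median of all kept probe sets moved from 0.026 to -0.16 and the share above 0 from 53.7% to 29.3%. With the offset at the 50th percentile 92292_at became 1.94 and the distance between the probe sets 2.27, and with the arm taken from the descriptions (T+T replicate 1 against the 3 other arrays) they were 0.52, -0.16 and a distance of 0.68. Over all probe sets, the 2 past the adjusted threshold became 6 with median scaling, 6 with the offset at the 50th percentile, 5 as deposited, and 0 with quantile scaling, with no filter, without the intensity trend and with the arm from the descriptions; without 1 T+T array it was 1 (without T+T replicate 3) to 63 (without T+T replicate 1). The 301 of 7453 probe sets at least 1.5-fold to one side became 523 of 12422 with no filter and 167 of 4969 under a 60th percentile filter. They became 155 under the larger offset and 190 as deposited (126 lower, 64 higher). Without 1 T+T array, where fewer arrays had to lie to one side, the count ran from 416 to 653 (without T+T replicate 3). The 3 within T+T became 35 with median scaling, 6 under the larger offset, 1 under the 60th percentile filter, and 0 with quantile scaling, as deposited, with no filter and without the trend; it could not be tested without T+T replicate 2 or 3, which leaves no residual degrees of freedom. Within T+T, 93804_at turned to 0.028 with median scaling and, without T+T replicate 2, to 0.11 (without T+T replicate 3 it was -0.21).

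Of the 19 named list genes, none passed the threshold under any of the settings and 8 changed sign under at least 1. As deposited, Slc2a8 became -0.045 and Bsg -0.072. Without T+T replicate 2, Slc2a5 became 0.056, Igf1r 0.12 and Pdpk1 -0.027; over the left-out arrays the ranges were -0.11 to 0.056 for Slc2a5, -0.406 to 0.12 for Igf1r and -0.027 to 0.418 for Pdpk1. With the arm taken from the descriptions, Slc2a5 became 0.19, Slc16a8 -0.33, Pdha1 0.21, Vamp2 0.11, Igf1r 0.26 and Pdpk1 -0.33. The causes of these changes were not tested. For the dim transporters the offset sets the size of a difference: that of Slc16a1 ran from -0.36 to -1.64. With the arm taken from the descriptions, Slc2a2 and 162385_i_at of Slc2a4 changed sign, to -0.073 and 0.25.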
